A study of Mus musculus with 28 samples.

Results

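The genes of the class II branch of the major histocompatibility complex (MHC class II) were followed in mouse liver, 10 genes of the 49585 features in the count table. They were chosen by name and comprise the chains of the presenting molecules (H2-Aa, H2-Ab1, H2-Eb1), the invariant chain Cd74, the peptide editor H2-DM (H2-DMa, H2-DMb1, H2-DMb2), its regulator H2-O (H2-Oa, H2-Ob) and the transcriptional coactivator Ciita. The 8 H2 genes lie between bases 34092340 and 34316674 of chromosome 17 (GRCm38) and Ciita at 10480059 to 10528418 of chromosome 16. All 10 genes were found by their Ensembl identifiers, had counts in every library, and were among the 21583 genes that passed the filter on low counts. Class II mRNA of the liver fell in male SIRT6-tg mice for every one of the 10 genes, by 2.32-fold for H2-Oa up to 8.60-fold for Ciita. In female SIRT6-tg mice no member passed the test. The levels of male SIRT6-tg livers overlapped those of female livers, except that Ciita in every male SIRT6-tg library lay below every female WT library. Male SIRT6-tg and female WT livers were not compared by a test. The share of all genes without overlap between them is not given here.

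The libraries were made from livers of C57BL/6JOlaHsd mice aged 5 to 7 months, 7 each from WT males, SIRT6-tg males, WT females and SIRT6-tg females. SIRT6-tg mice carry extra Sirt6, which encodes a nuclear NAD-dependent deacylase, in the whole body, and all descend from 1 transgenic line. The promoter of the transgene is not given in the sources used here. WT mice carried no transgene, and mice of all groups were kept on standard chow and, per the study's text, fasted for a few hours before the livers were taken. Sirt6 itself was counted at 44.5 to 85.5 normalized counts in male WT and at 5235 to 9466 in male SIRT6-tg libraries. It was at 47.7 to 164 in female WT and 432 to 1327 in female SIRT6-tg libraries. Each library thus matched its genotype label, while the overlapping WT ranges do not check the labels of sex. The fitted excess was larger in males (102-fold) than in females (10.5-fold). Library totals were 18758863 to 35393069 counts. A normalized count is a read count scaled by the TMM method to the mean library of the series, and a level per kilobase (RPKM) further divides by exon length. Liver markers such as Alb were abundant throughout, and marker genes of leukocytes are given beside the results they move with. Replicates agreed closely, the lowest correlation of a library with the rest of its group being 0.982 (log2 CPM, across genes, which are not independent replicates), in male WT replicate 6.

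Class II molecules are pairs of an α and a β chain that display peptides from engulfed proteins to CD4+ T cells. Mouse H2-A is built from H2-Aa and H2-Ab1, and the β chain of H2-E is encoded by H2-Eb1. Cd74, the invariant chain, escorts new pairs to the endosome, where H2-DM exchanges the last remnant of Cd74 for a peptide and H2-O restrains H2-DM. Ciita binds no DNA itself and is recruited by RFX, NF-Y and CREB proteins sitting on a shared set of promoter boxes, the X box and the Y box. In the liver these genes are known mainly from Kupffer cells, dendritic cells and B cells, and interferon-γ can induce Ciita in other cells. Mice of the C57BL/6 background lack a working H2-Ea gene, and H2-Ea-ps was listed at 0 in all 28 libraries.

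The shared boxes can be read in the promoters. RefSeq start sites of GRCm38.p6 gave a promoter for 7 of the 10 members, H2-DMa with a pair of start sites, and H2-Ab1, Ciita and Cd74 had none in the table. Bases 150 to 31 upstream of the start site are shown for 6 genes, 5′ to 3′ on the gene's strand. They were chosen because they hold the paired boxes described next. The H2-DMa promoters searched do not and are left out, although H2-DMa fell as well. Capitals mark the letters ATTGG of the Y box and, 28 to 31 bases upstream counted from first base to first base, AACNGATG or, where only its first letters match, AAC.
H2-Aa (chr17:34287854-34287973, minus strand): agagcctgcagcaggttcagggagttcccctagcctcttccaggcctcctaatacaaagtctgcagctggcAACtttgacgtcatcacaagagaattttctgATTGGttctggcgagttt
H2-Eb1 (chr17:34305717-34305836, plus strand): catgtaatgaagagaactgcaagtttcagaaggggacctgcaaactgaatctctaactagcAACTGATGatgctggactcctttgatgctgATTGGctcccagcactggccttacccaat
H2-DMb1 (chr17:34153041-34153160, plus strand): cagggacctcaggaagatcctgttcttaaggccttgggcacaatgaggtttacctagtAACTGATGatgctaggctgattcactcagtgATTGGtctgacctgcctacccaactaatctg
H2-DMb2 (chr17:34145099-34145218, plus strand): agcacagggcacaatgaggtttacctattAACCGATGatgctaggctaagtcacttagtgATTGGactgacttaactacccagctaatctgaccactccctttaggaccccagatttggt
H2-Ob (chr17:34238755-34238874, plus strand): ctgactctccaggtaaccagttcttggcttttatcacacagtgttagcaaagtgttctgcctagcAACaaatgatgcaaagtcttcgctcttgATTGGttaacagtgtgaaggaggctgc
H2-Oa (chr17:34092229-34092348, plus strand): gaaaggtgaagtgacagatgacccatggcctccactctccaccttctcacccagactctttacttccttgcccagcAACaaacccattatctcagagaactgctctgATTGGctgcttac

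In the 6 promoters, chosen for this pair, AAC lay at positions −121 to −74 and ATTGG at −90 to −43 relative to the start site. Neither H2-DMa promoter searched held the pair. Both lie inside the annotated span of the gene, 34119541 to 34139101. Other possible start sites of H2-DMa were not searched, so whether the gene has the paired boxes elsewhere was not tested. On either strand, AAC followed by ATTGG at 28 to 31 bases was present in 817 of the 32851 mouse promoters of the same length, or 2.49%. The longer AACNGATG followed by ATTGG at that distance was present in 5 promoters (0.0152%), those of H2-Eb1, H2-DMb1 and H2-DMb2, of the class II gene H2-Eb2, and of BC051142. Alone, AACNGATG was found in 2.32% and ATTGG in 37.4% of promoters. The letters and their distance were chosen after the sequences had been read, and a match describes the sequence without showing that a protein binds there.

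The presenting chains were among the abundant members. In male WT livers H2-Aa had a lowest, median and highest normalized count of 3141, 5316 and 8762 over the 7 libraries, against 664, 908 and 1381 in male SIRT6-tg livers. The highest transgenic library thus held less H2-Aa than the lowest WT library. Its log2 fold change was −2.61 (SE 0.30, 6.09-fold lower, edgeR quasi-likelihood test, adjusted p = 3.47e-07). H2-Ab1, which encodes the partner chain, went from 2838, 6019 and 9831 to 657, 932 and 1386, a log2 fold change of −2.60 (SE 0.35, adjusted p = 4.50e-06). H2-Eb1 was at 2824, 6198 and 12099.7 in male WT and at 647, 934 and 1409.7 in male SIRT6-tg livers, 6.59-fold lower by the fit (log2 fold change −2.72, SE 0.38, adjusted p = 6.07e-06). For all 3 chains the male groups did not overlap. Of all genes tested, 11.0% were called lower in male SIRT6-tg livers, and 4.37% were lower in every transgenic than in every WT library.

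In females the same chains overlapped widely between genotypes. H2-Aa lay at 1016, 1707 and 3131 in WT and 854, 1101 and 2846 in SIRT6-tg livers (lowest, median and highest), a log2 difference of −0.27 with a 95% interval of −0.85 to 0.31. H2-Ab1 lay at 666, 1419 and 3021 and at 639, 1004 and 2699, and H2-Eb1 at 657, 1415 and 2897 and at 560.4, 1087 and 2555. The female WT library with the most class II mRNA, replicate 4, was the highest of its group for all 3 chains, and replicate 5 was the lowest. The intervals of the female log2 differences, −0.99 to 0.39 for H2-Ab1 and −1.10 to 0.36 for H2-Eb1, excluded the male point estimates.

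Cd74 was the most abundant member. It had a lowest, median and highest normalized count of 7451, 16075 and 34365 in male WT, 1683, 2385 and 3950.0 in male SIRT6-tg, 1999, 4282 and 8220.1 in female WT and 1942, 2734 and 5678 in female SIRT6-tg livers. Male WT replicate 6, with the highest value of the series, and male WT replicate 5, with the lowest of its group, show how wide the spread among WT males was. Even so, the lowest WT male exceeded the highest transgenic male. The male log2 fold change was −2.77 (SE 0.35, 6.81-fold lower, adjusted p = 1.26e-06), and the female one −0.37 (95% interval −1.04 to 0.30, adjusted p = 1.00).

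H2-DM joins H2-DMa to either of 2 β chains, H2-DMb1 or H2-DMb2. The fitted male change of H2-DMb2 was smaller than those of the others, a difference that was not tested directly. H2-DMa fell from 248, 538 and 1044 in male WT to 77.1, 109 and 201 in male SIRT6-tg livers, a log2 fold change of −2.37 (SE 0.36, adjusted p = 1.56e-05). H2-DMb1 fell from 206, 410.5 and 691 to 56.5, 72.3 and 131 (log2 fold change −2.39, SE 0.31, adjusted p = 1.30e-06). H2-DMb2, with far fewer reads, fell from 49.9, 61.2 and 87.1 to 18.5, 22.9 and 31.1, 2.64-fold by the fit (log2 fold change −1.40, SE 0.20, adjusted p = 5.28e-06). None of the 3 overlapped between the male groups. In females they ranged over 84.2 to 341 and 82.5 to 300.2 (H2-DMa, WT and SIRT6-tg), 65.0 to 235 and 59.4 to 195 (H2-DMb1), and 17.3 to 56.2 and 20.2 to 38.3 (H2-DMb2), and none passed the test. Of the exonic length of H2-DMa, 360 bases (10.4%) are shared with Brd2 on the opposite strand, and the strand setting of the counting is not given in the sources used here.

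The regulator H2-O is known from B cells and some dendritic cells, and in male WT livers its genes were the least expressed members per length. H2-Ob had 79.6, 86.4 and 114 normalized counts in male WT and 19.6, 35.6 and 50.6 in male SIRT6-tg livers, without overlap (log2 fold change −1.38, SE 0.23, adjusted p = 6.08e-05). In females it had 22.7, 58.5 and 75.9 in WT and 25.2, 51.97 and 67.5 in SIRT6-tg livers. H2-Oa rested on 2 to 24 raw reads per library. Its male libraries overlapped, at 5.57, 12.4 and 21.1 in WT and 2.05, 6.39 and 7.01 in SIRT6-tg livers, with 3 of the 7 transgenic libraries below every WT library, and the fitted log2 fold change was −1.21 (SE 0.31, adjusted p = 0.00548). Female WT and SIRT6-tg livers had 4.04, 8.12 and 16.5 and 6.74, 9.90 and 13.2 normalized counts of H2-Oa. An antisense transcript, BC051537, shares 321 exonic bases with H2-Oa.

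Ciita, the coactivator on which class II transcription depends, had the largest male fold change of the members. Its lowest, median and highest normalized counts were 137, 291 and 459 in male WT and 18.5, 34.1 and 40.6 in male SIRT6-tg livers. The gap between the groups, from 137 down to 40.6, was wide compared with the spread of the transgenic males. By the fit Ciita was 8.60-fold lower (log2 fold change −3.10, SE 0.33, 95% interval −3.78 to −2.43, adjusted p = 9.01e-08). Female WT livers had 42.6, 67.0 and 110.3 and female SIRT6-tg livers 18.7, 57.7 and 123, where 3 transgenic libraries lay below and 1 above every WT library (log2 difference −0.38, 95% interval −1.03 to 0.26). Of the exonic length of Ciita, 329 bases are shared with Dexi on the other strand.

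**Figure D1:**
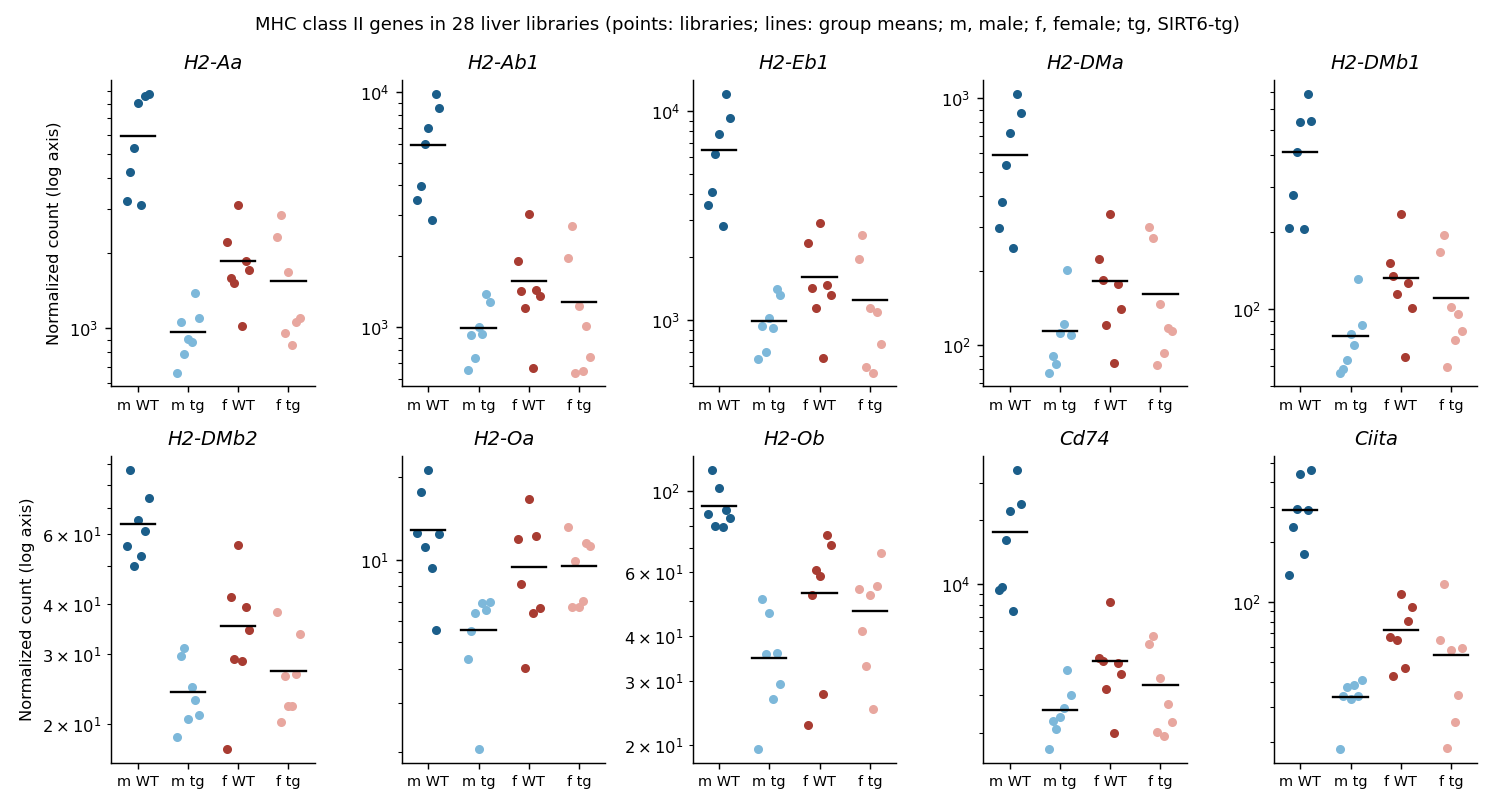
Normalized counts of the 10 members on a log axis, 1 panel per gene, with a point for each of the 7 libraries of WT and SIRT6-tg males and then of WT and SIRT6-tg females, and a line at the group mean. Male WT points stand above male SIRT6-tg points without overlap in 9 panels, all but H2-Oa, while the female groups overlap in all 10.

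Across the 10 genes, the male log2 fold changes had a median of −2.49 against 0.06 over all genes tested, and the range was −3.10 to −1.21. Female differences ranged from −0.38 to 0.01 with a median of −0.28, against a median near 0 over all genes. The edgeR test called 0 of 10 in females, 0 had an unadjusted p under 0.05, and DESeq2 called 0 as well. In that comparison only 0.00463% of all genes were called lower and 0.0232% higher. The summed level of the 10 genes had a median of 1324 CPM (644 to 2537) in male WT, 212 (146 to 324) in male SIRT6-tg, 350 (174 to 685) in female WT and 236 (161 to 546) in female SIRT6-tg livers. In a bulk sample, fewer class II-bearing cells and less class II mRNA per cell cannot be told apart.

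Whether the genotype changed class II mRNA differently in males and females was tested as the difference of both effects. It was called for 9 of 10 members, all with the larger decrease in males, while 3.84% of all genes were called in that direction. The differences were largest for Ciita (−2.72, SE 0.45, adjusted p = 5.86e-04), Cd74 (−2.40, SE 0.46, adjusted p = 0.00260) and H2-Eb1 (−2.35, SE 0.51, adjusted p = 0.00616) on the log2 scale. H2-Ob (−1.20, adjusted p = 0.0282) and H2-DMb2 (−1.02, adjusted p = 0.0325) had smaller ones, and H2-Oa (−1.22, adjusted p = 0.109) did not pass, though it did with scaling by library size alone (−1.51, adjusted p = 0.0271). The call for H2-DMb2 was lost without any 1 of 8 libraries, replicates 2 and 7 of male WT, 1 and 4 of male SIRT6-tg, 3 and 5 of female WT and 1 and 7 of female SIRT6-tg (adjusted p 0.0522 to 0.0616), and that for H2-Ob without female SIRT6-tg replicate 7 (adjusted p = 0.0569). Sirt6 mRNA also rose more in males than in females, so the sexes differed in transgene level as well as in sex, and these cannot be told apart here.

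**Figure D2:**
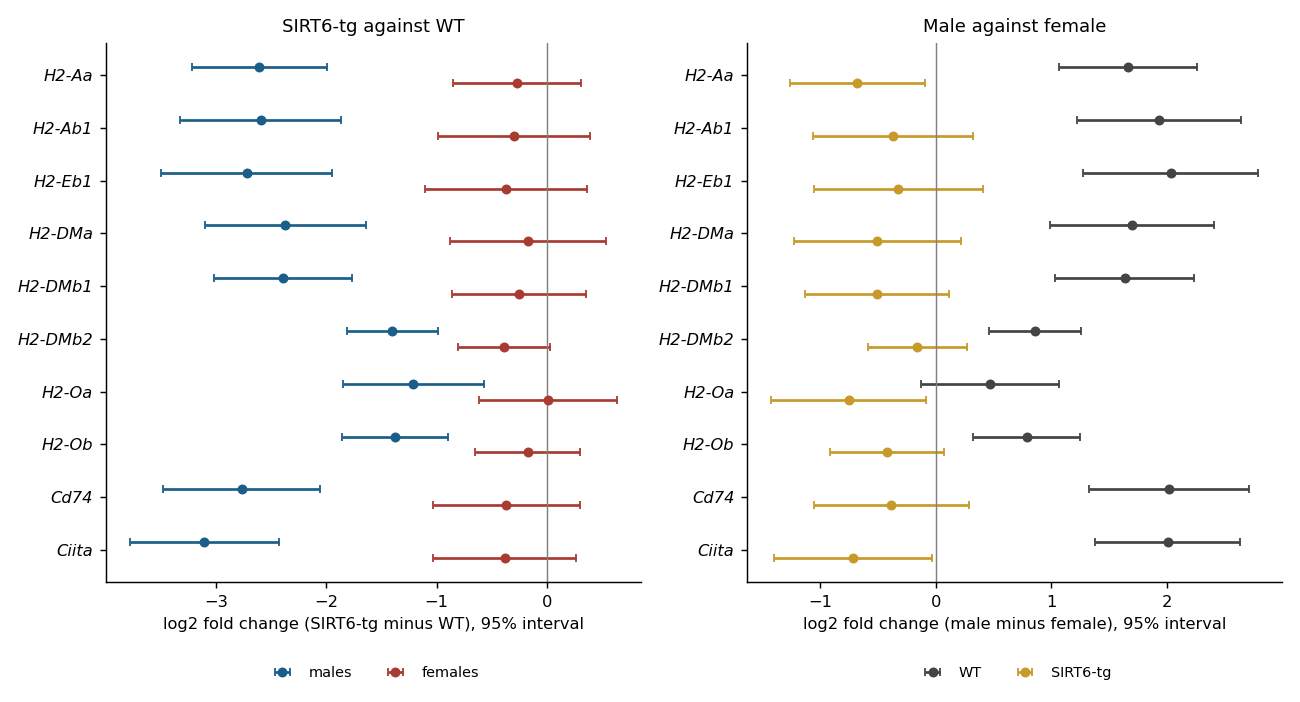
Log2 fold changes with 95% intervals for each member, on the left SIRT6-tg minus WT in males and in females, on the right male minus female in WT and in SIRT6-tg livers. Male genotype changes lie between −3.10 and −1.21 and female ones between −0.38 and 0.01, while male WT livers exceed female WT livers for 9 of 10 genes.

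WT livers themselves differed by sex. Of the members 9, all but H2-Oa, were called higher in male WT than in female WT livers, against 6.65% of all genes. H2-Eb1 was 4.08-fold higher (log2 difference 2.03, SE 0.37, adjusted p = 3.88e-04), Cd74 4.04-fold (adjusted p = 1.42e-04) and Ciita 4.02-fold (log2 difference 2.01, adjusted p = 3.63e-05). For H2-Aa, H2-Ob and Ciita every male WT library exceeded every female WT library. The share of all genes without overlap between these groups is not given here. H2-Oa differed by 0.47 (95% interval −0.13 to 1.07, adjusted p = 0.337). This comparison uses the same male WT libraries as the male genotype comparison.

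Male and female SIRT6-tg livers were closer. All 10 members had lower point estimates in males, from −0.75 for H2-Oa and −0.72 for Ciita to −0.16 for H2-DMb2 on the log2 scale. The edgeR and DESeq2 tests each called 0 of them, against 10.2% of all genes called lower in males by edgeR, although 3 (H2-Aa, H2-Oa and Ciita) had an unadjusted p under 0.05. The interval for H2-Aa, −1.26 to −0.09, excluded 0 before adjustment, and that for Cd74 was −1.05 to 0.28. The order of the group means was therefore male WT, female WT, female SIRT6-tg and male SIRT6-tg for 9 of the 10 genes. In H2-Oa the female means were 9.40 in WT and 9.47 normalized counts in SIRT6-tg livers. For those 9 genes the step from male WT to female WT passed the test, and the steps between female WT and female SIRT6-tg and between female and male SIRT6-tg livers did not.

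Levels of different genes can be compared per length. In male WT livers Cd74 had 395 ± 221 RPKM (mean ± SD, n = 7), H2-Eb1 127 ± 65.8, H2-Ab1 87.9 ± 39.3 and H2-Aa 58.8 ± 25.0. The accessory chains were an order of magnitude lower, H2-DMb1 at 9.23 ± 4.24 and H2-DMa at 6.44 ± 3.33 RPKM. Lowest were H2-DMb2 (1.38 ± 0.283), Ciita (1.15 ± 0.487), H2-Ob (0.639 ± 0.0905) and H2-Oa (0.344 ± 0.139). Neighbours in this order overlapped in their range over libraries, except that H2-Aa lay above H2-DMb1 and H2-DMa above H2-DMb2 in every library. Within a library some ratios were nevertheless tight. Cd74 exceeded H2-Ab1 in every library of the series, with median ratios per length of 4.13 in male WT (3.70 to 5.35) and 3.92 in male SIRT6-tg livers (3.60 to 4.36), and the ratio of H2-Eb1 to H2-Ab1 was 1.41 ± 0.105 (SD, n = 7) and 1.32 ± 0.0405. The ratio of H2-DMa to H2-DMb1 was 0.682 ± 0.0635 and 0.704 ± 0.0732 in the same groups. The chains of H2-A had an H2-Aa to H2-Ab1 ratio of 0.679 ± 0.0740 in male WT, 0.671 ± 0.0664 in male SIRT6-tg, 0.839 ± 0.107 in female WT and 0.867 ± 0.125 in female SIRT6-tg livers, and the difference between the sexes in this ratio was not tested.

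The order at the bottom changed between groups. Ciita stood above H2-Ob in male WT livers (1.15 ± 0.487 against 0.639 ± 0.0905 RPKM) and below it in male SIRT6-tg livers (0.134 ± 0.0290 against 0.245 ± 0.0764), female WT livers (0.287 ± 0.0976 against 0.370 ± 0.144) and female SIRT6-tg livers (0.217 ± 0.139 against 0.329 ± 0.102). The H2-DMb2 to H2-DMb1 ratio was 0.180 ± 0.0868 in male WT and 0.322 ± 0.122 in male SIRT6-tg livers (SD, n = 7 each), and that of H2-Ob to H2-DMa 0.127 ± 0.0654 and 0.213 ± 0.0885, with overlapping ranges and no test.

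How closely the other members followed Ciita was tested on the ratio of each gene to Ciita within each library, with limma on log2 values across all genes. In males 3 genes fell less than Ciita. Their log2 ratios rose by 2.01 for H2-Oa (SE 0.44, limma adjusted p = 6.59e-06), 1.61 for H2-DMb2 (SE 0.40, adjusted p = 6.23e-05) and 1.57 for H2-Ob (SE 0.39, adjusted p = 6.48e-05). The ratios of the 6 others, H2-Aa, H2-Ab1, H2-Eb1, H2-DMa, H2-DMb1 and Cd74, differed by 0.33 (Cd74, 95% interval −0.41 to 1.07) to 0.71 (H2-DMa, −0.02 to 1.44) and did not pass the test. As a background, 99.4% of all genes changed against Ciita in males, counted in either direction. Ciita itself had a log2 fold change of −3.10 beside a median of 0.06 over all genes, so a typical gene rose relative to it. The called count of 3 of 9 stands below that share, as it can for any genes that fell strongly. In females 0 of 9 ratios to Ciita passed the limma test, 0 had an unadjusted p under 0.05, and 0.116% of all genes did pass, with member differences of 0.11 to 0.62. Fitted on males alone, without male WT replicate 6 or without female SIRT6-tg replicate 2, H2-DMa and H2-DMb1 also passed, with adjusted p between 0.0265 and 0.0488, which makes 5. H2-DMa alone also passed with a prior count of 0.5 (adjusted p = 0.0493) and without replicate 3 of either transgenic group (adjusted p 0.0411 and 0.0418).

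**Figure D3:**
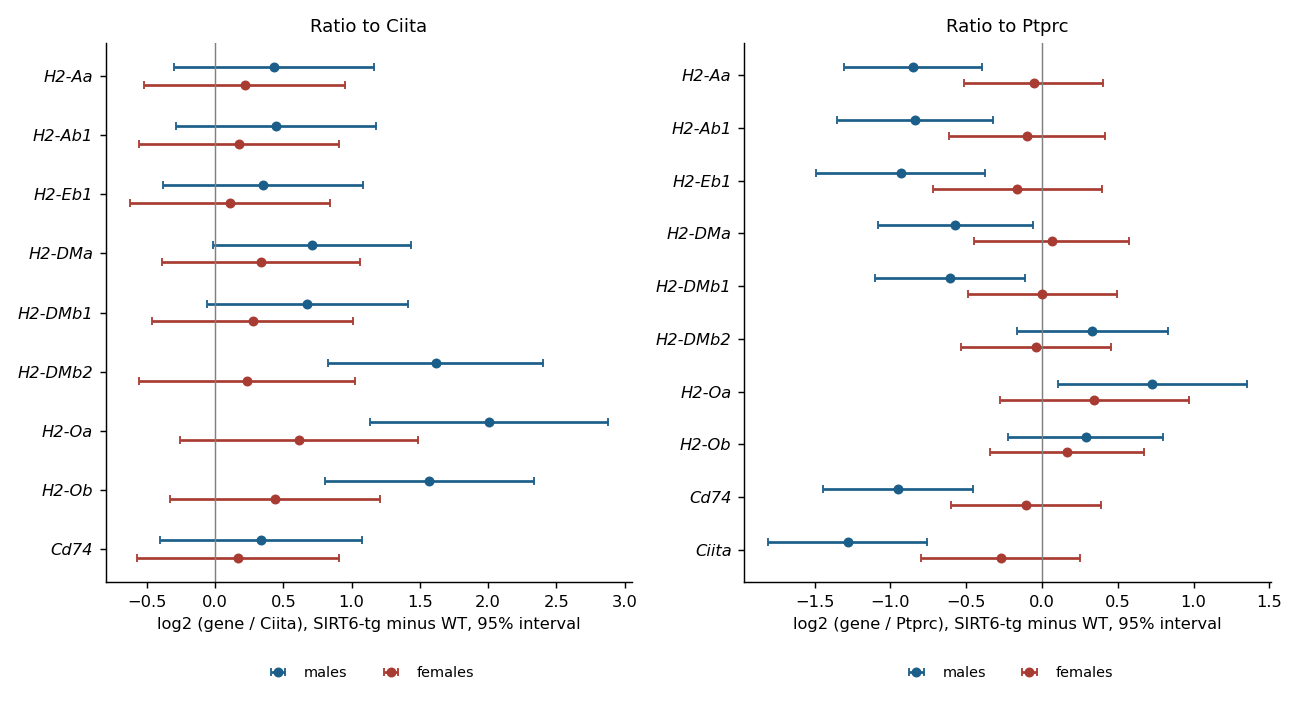
Change in the log2 ratio of each member to Ciita (left) and to Ptprc (right), SIRT6-tg minus WT, with 95% intervals, in males and females. Against Ciita, H2-DMb2, H2-Oa and H2-Ob stand apart in males at 1.57 to 2.01, and against Ptprc the presenting chains, Cd74, H2-DMa, H2-DMb1 and Ciita lie below 0 in males.

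Within the groups, the same 6 genes moved with Ciita from library to library most closely in male WT and female SIRT6-tg livers. Over the 7 male WT libraries, Pearson's r with Ciita (log2 CPM) was 0.773 to 0.910 for the 6 genes, highest for H2-Aa (exact permutation p = 0.00595, adjusted p = 0.176; Spearman's rho 0.857, exact p = 0.0238). In female SIRT6-tg livers it was 0.840 to 0.875 (exact permutation p 0.00794 to 0.0218, adjusted p 0.200 to 0.260; rho 0.857 to 0.929, exact p 0.00675 to 0.0238). Female WT livers gave 0.551 to 0.735 (exact p 0.0556 to 0.199) and male SIRT6-tg livers 0.367 to 0.602 (exact p 0.189 to 0.347). Adjusted over the 360 relations of Ciita with list genes that were computed, 0 passed in any group. By Pearson's r, members with an unadjusted exact p under 0.05 numbered 5 of 9 in WT males and 6 of 9 in SIRT6-tg females. In SIRT6-tg males and in WT females 0 of 9 had one. Of the 81 other list genes, 26 in WT males, 0 in SIRT6-tg males, 3 in WT females and 7 in SIRT6-tg females had one. Their r reached 0.974 in WT males. For H2-DMb2, H2-Oa and H2-Ob, r ranged over 0.195 to 0.374 in male WT and −0.154 to 0.515 in female SIRT6-tg livers. It ranged over 0.401 to 0.541 in male SIRT6-tg livers, within the range of the 6 genes there, and over 0.345 to 0.484 in female WT livers. Spearman's rho in male SIRT6-tg livers was 0.857 for H2-Oa (exact p = 0.0238, adjusted p = 0.373), 0.536 for H2-DMb2 and −0.107 for H2-Ob. For the 6 genes rho was 0.214 to 0.429 there.

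These relations leaned on few libraries in transgenic males. Without the 2 libraries farthest from the median of Ciita, r for the 6 genes was 0.507 to 0.768 in male WT, 0.553 to 0.780 in female WT and 0.700 to 0.830 in female SIRT6-tg livers, but −0.609 to −0.272 in male SIRT6-tg livers, where the relation did not hold. Ciita had only 17 to 41 raw reads in those libraries. In the plot of H2-Aa, Cd74 and H2-Ob against Ciita, the first pair rises along with Ciita over all groups, and male WT replicate 6 stands above the others of its group for Cd74.

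**Figure D4:**
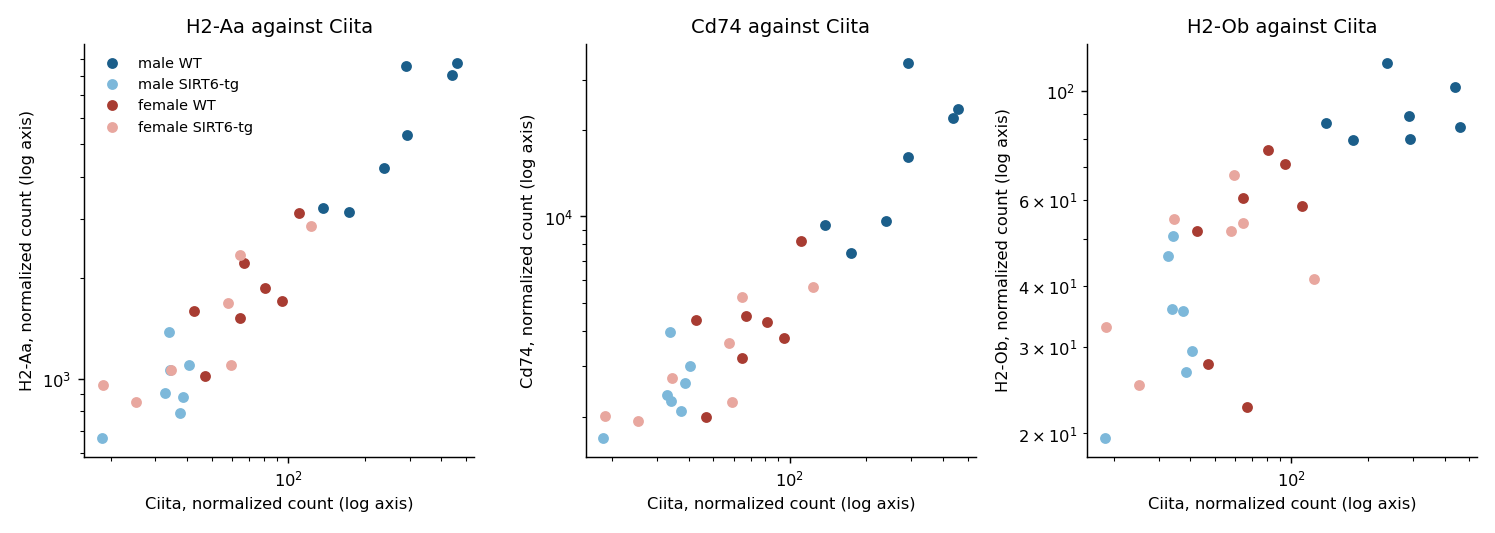
Normalized counts of H2-Aa, Cd74 and H2-Ob against those of Ciita in all 28 libraries, both axes logarithmic, colours marking the 4 groups. H2-Aa and Cd74 climb with Ciita from male SIRT6-tg and female libraries to male WT libraries, while H2-Ob shows 79.6 to 114 counts in male WT livers over the whole range of Ciita from 137 to 459.

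Ciita was set against 14039 other genes, the members and all those averaging 10 normalized counts or more. The 5 whose pattern was most like that of Ciita, by the mean of the 4 within-group r, were Samhd1 (0.841), Tagap (0.822), Tgtp2 (0.817), Gbp2 (0.810) and Gpr35 (0.803). Samhd1 encodes a nucleotide-degrading enzyme that restricts viruses, and Tgtp2 and Gbp2 encode interferon-inducible GTPases. H2-Aa ranked 12th with 0.771, H2-Ab1 22nd with 0.730, Cd74 24th with 0.714 and H2-Eb1 27th with 0.703. H2-DMb1 (0.662) and H2-DMa (0.651) stood at ranks 54 and 59, against 557 for H2-Ob (0.426), 1171 for H2-DMb2 (0.312) and 1769 for H2-Oa (0.245). These are descriptions over 7 libraries in each of 4 groups, whose libraries are shared by all genes.

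The other genes around the pathway are given from lists of named genes. Of the 7 DNA-binding partners of Ciita (Rfx5, Rfxap, Rfxank, Nfya, Nfyb, Nfyc and Creb1), 0 were lower in male SIRT6-tg livers by edgeR, where 1 (Rfx5) had an unadjusted p under 0.05 and a negative change, while 3 were higher (9.68% of all genes were called higher). Rfxank rose by 0.41 (adjusted p = 0.0252), Rfxap by 0.36 (adjusted p = 0.00917) and Nfyc by 0.34 (adjusted p = 0.00302) on the log2 scale. Rfx5, the large RFX subunit, had 241 and 161 normalized counts (medians of male WT and SIRT6-tg) and an adjusted p of 0.0838. The median of the list was 0.17.

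The genes that lead from interferon-γ to Ciita were lower in part. Of 8 such genes, 5 were lower in male SIRT6-tg livers, against 11.0% of all genes. Ifng, the cytokine itself, was counted at 4.75 to 47.9 in male WT and 0.990 to 4.57 in male SIRT6-tg livers (log2 fold change −2.82, SE 0.50, adjusted p = 1.01e-04), resting on 1 to 5 raw reads per transgenic library. Irf1, which acts on the Ciita promoter, also fell (log2 fold change −1.28, adjusted p = 1.62e-06), as did Irf8 (−1.74, adjusted p = 2.79e-08), the feedback inhibitor Socs1 (−2.62, adjusted p = 2.36e-08) and the receptor chain Ifngr1 (−0.44, adjusted p = 0.00487). Jak1, Jak2 and Ifngr2 did not pass. In WT livers 4 of the 8 (Ifng, Irf1, Irf8 and Socs1) were higher in males than in females, against 6.65% of all genes. Between female genotypes edgeR called 0 of the 8, with 1 (Irf8) at an unadjusted p under 0.05.

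Of 6 genes for antigen processing, 3 were lower in male SIRT6-tg livers, against 11.0% of all genes. Ctss, the protease that trims the invariant chain in antigen-presenting cells, had a median of 3286 normalized counts in male WT and 1182 in male SIRT6-tg livers (log2 fold change −1.65, adjusted p = 5.71e-05). Ifi30, a thiol reductase of the endosome, fell (log2 fold change −1.03, adjusted p = 5.06e-04), as did the endopeptidase Lgmn (−0.84, adjusted p = 0.00177). The general lysosomal proteases Ctsl, Ctsb and Ctsd, which hepatocytes also make, had log2 differences of 0.10, −0.20 and −0.08 and did not pass.

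Of 6 genes for class II turnover and costimulation, 5 were lower in male SIRT6-tg livers, against 11.0% of all genes. Cd40, a receptor for T cell help, fell (log2 fold change −2.12, adjusted p = 6.58e-07), as did the costimulators Cd86 (−1.63, adjusted p = 2.49e-07) and Cd80 (−1.17, adjusted p = 0.00249). Cd83, which stabilizes class II at the surface, fell (log2 fold change −1.52, adjusted p = 4.24e-07), and so did March1 (−1.46, adjusted p = 6.99e-06), a ubiquitin ligase that removes it. March8, the related ligase with a broad tissue range, differed by 0.15 and did not pass. H2-Eb2, a further class II β chain gene whose promoter shares the paired boxes, had 15.6 to 33.4 normalized counts in male WT and 0 to 9.90 in male SIRT6-tg livers (log2 fold change −2.50, adjusted p = 1.43e-05).

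**Figure D5:**
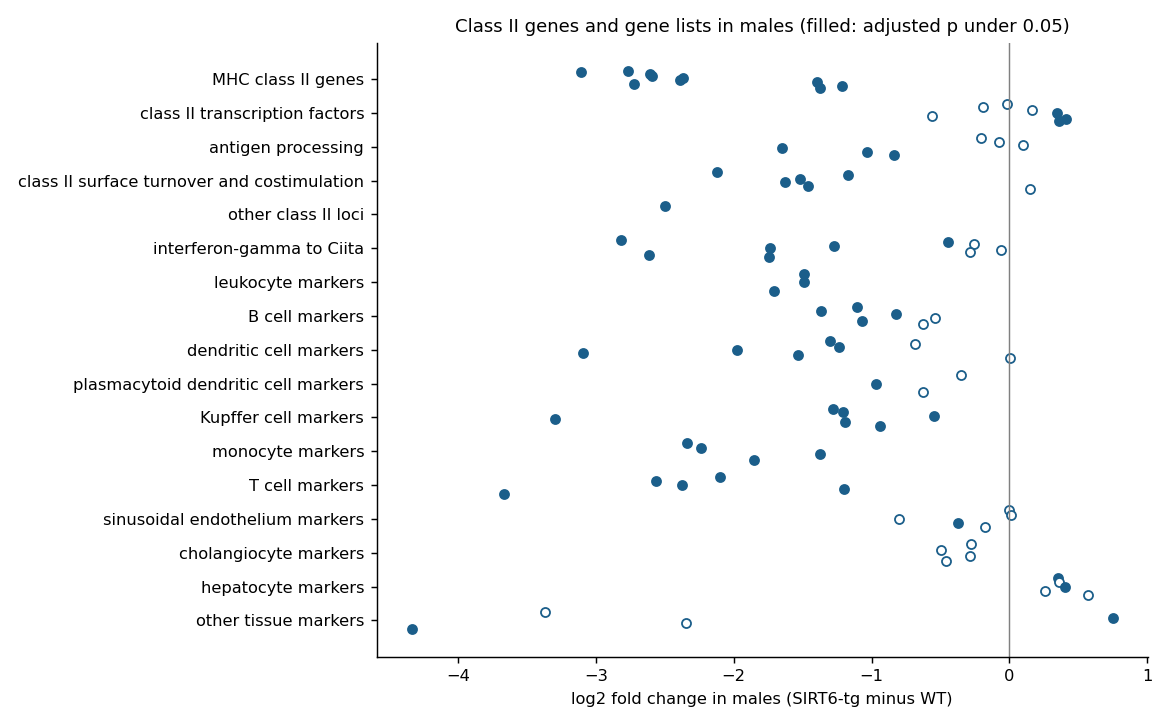
Log2 fold changes in males (SIRT6-tg minus WT) of the 10 members and of the genes of each list, filled where the adjusted p was under 0.05. The members lie at −3.10 to −1.21, the transcription factors at −0.56 to 0.41, and most leukocyte markers to the left of 0, with single T cell, Kupffer cell and dendritic cell markers at least as low as Ciita or close to it.

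Markers of leukocytes, T cells among them, mostly moved in the same direction. In males all 3 pan-leukocyte markers were lower in SIRT6-tg livers, as were 4 of 6 B cell, 5 of 7 dendritic cell, 1 of 3 plasmacytoid dendritic cell, 6 of 6 Kupffer cell, 4 of 4 monocyte and 5 of 5 T cell markers. Of all genes, 11.0% were called lower in that comparison. The summed level of the leukocyte list was 82.3 to 160.2 CPM in male WT, 32.7 to 52.7 in male SIRT6-tg, 44.2 to 86.0 in female WT and 41.9 to 68.1 in female SIRT6-tg livers. That of the B cell list was 12.0 to 19.4, 6.41 to 11.2, 8.46 to 16.5 and 5.75 to 17.8 CPM in the same order, and that of the dendritic cell list 17.97 to 33.3, 8.66 to 13.7, 15.2 to 20.1 and 12.8 to 17.8 CPM. Kupffer cell markers summed to 296 to 985, 254 to 431, 326 to 698 and 249 to 639 CPM, monocyte markers to 8.58 to 21.8, 1.97 to 5.12, 6.25 to 9.69 and 3.87 to 7.66 CPM, and T cell markers to 9.44 to 28.7, 3.14 to 4.46, 3.31 to 11.1 and 3.71 to 7.11 CPM. No gene of these lists was at 0 in every library of a group.

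The median log2 fold change of the B cell list in males was −0.95, that of the Kupffer cell list −1.20, of the dendritic cell list −1.30, of the leukocyte list −1.49, of the monocyte list −2.05 and of the T cell list −2.38, beside −2.49 for the members. Itgax, which encodes CD11c of dendritic cells and some macrophages, changed by as much as Ciita (−3.09, adjusted p = 5.16e-09). It was the lowest of the 7 dendritic cell markers, whose log2 fold changes ran up to 0.004. Zbtb46, another of them, averaged 151 normalized counts in male WT and 152 in male SIRT6-tg livers. Of 5 markers of sinusoidal endothelium 1 was lower (Pecam1, −0.37), of 4 cholangiocyte markers edgeR called 0 (1, Sox9, had an unadjusted p under 0.05), and of 5 hepatocyte markers 2 were higher (Alb, 0.35, and Fgb, 0.40). The shares over all genes were 11.0% lower and 9.68% higher. Of 4 pancreatic and fat genes tested as signs of other tissue, Ctrb1 was lower and Cela1 higher. Male WT replicate 3 stood apart with 35.7 normalized counts of Ctrb1, 13.5 of Cpa1 and 68.1 of Adipoq, where no other male library exceeded 2.64 for any of the 3, and without it edgeR still called all 10 members lower in males. In females edgeR called 0 genes of any of these marker lists, and 9 had an unadjusted p under 0.05, among them 3 of 5 T cell markers. The part of cell numbers in the class II differences was not tested.

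Each member was also set against Ptprc, which encodes the pan-leukocyte surface protein CD45. Ptprc had a median of 1155 normalized counts in male WT and 316 in male SIRT6-tg livers. This 1 gene does not stand for every leukocyte, as median male changes were −0.95 for the B cell list and −2.38 for the T cell list. Whether class II mRNA changed beyond a shift in the mix of leukocytes was not tested. Relative to Ptprc, 7 members were lower in male SIRT6-tg livers, Ciita with −1.28 (SE 0.26, limma adjusted p = 1.15e-05), Cd74 with −0.95 (adjusted p = 3.69e-04), H2-Eb1 with −0.93 (adjusted p = 0.00180), H2-Aa with −0.85 (adjusted p = 5.14e-04), H2-Ab1 with −0.84 (adjusted p = 0.00224), H2-DMb1 with −0.61 (adjusted p = 0.0182) and H2-DMa with −0.57 (adjusted p = 0.0307), all as differences of log2 ratios. H2-Oa was higher relative to Ptprc (0.73, adjusted p = 0.0248), a call that was lost with a prior count of 0.5 (0.55, adjusted p = 0.155). H2-DMb2 (0.33, 95% interval −0.16 to 0.83) and H2-Ob (0.29, −0.22 to 0.80) did not pass. Of all genes, 94.7% changed against Ptprc, counted in either direction. Ptprc itself had a log2 fold change of −1.71 beside a median of 0.06 over all genes, so a typical gene rose relative to it. The share of all genes called lower relative to Ptprc is not given here, so the 7 lower members have no background share.

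Without male WT replicate 6, which had the highest Cd74, H2-Ab1 and H2-Eb1 of its group, 5 members still passed against Ptprc (H2-Aa, H2-Ab1, H2-Eb1, Cd74 and Ciita) and H2-DMa (−0.44, adjusted p = 0.0943), H2-DMb1 (adjusted p = 0.0563) and H2-Oa (0.54, adjusted p = 0.1) did not. The call for H2-DMa was also lost without replicate 3 or 7 of male WT or replicate 1, 2 or 3 of male SIRT6-tg (adjusted p 0.0511 to 0.0759), and that for H2-DMb1 without male SIRT6-tg replicate 2 (adjusted p = 0.0559). In females the limma test against Ptprc called 0 of 10 members and 0 had an unadjusted p under 0.05, beside 0.0510% of all genes called. Female differences ran from −0.27 for Ciita (95% interval −0.80 to 0.25) to 0.34 for H2-Oa.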

How the data were processed

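Liver RNA of 28 mice was sequenced as 1 library each after preparation with the NEBNext Ultra kit. Per the labels the reads were aligned to mm10 with STAR 2.5.0a and counted with HTSeq, and the authors deposited raw counts per gene for every library. The strand setting of the counting is not given in the sources used here. Symbols and exon lengths came from a Gencode annotation of GRCm38, which matched 49326 of the 49585 features, and the transferrin and H2-Ea entries of the lists were read under their symbols Trf and H2-Ea-ps. Every column of the table mapped to a labelled sample (0 unmapped columns), and no pair of libraries of a group agreed within sampling noise.

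Genes with a mean of at least 0.5 counts after scaling by size factors were kept. Counts were scaled by TMM and fitted with edgeR 4.0.16 (R 4.3.3, robust quasi-likelihood test, all 4 groups in 1 fit), with Benjamini-Hochberg adjustment over 21583 genes and a threshold of 0.05. Normalized counts are CPM after TMM scaling times the mean library size. RPKM divides by the union of exons and serves only to compare genes. Ratios to Ciita and Ptprc were tested with limma 3.58.1 on log2 CPM (prior count 2). Correlations with Ciita within a group of 7 were tested by exact two-sided permutation over all pairings and adjusted over 360 relations. Confidence intervals are at 95% and give the uncertainty of the fitted difference between groups, with libraries as replicates. They do not cover the range of single libraries. DESeq2 1.42.0, other scalings and filters, a replicate block and leaving out each library were run as alternatives. The scripts were tested on simulated data. Promoters and motif shares came from RefSeq start sites.

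All members are described. Other genes are named from the lists, as Sirt6, as the genes most similar to Ciita, or after their values were seen where the text says so. A gene of the interferon list is not reported here. Members and lists were chosen with earlier results of these data known.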

Additional observations from a re-analysis of the deposited data

Results flagged for a closer look

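In male SIRT6-tg livers Ciita was lowest in replicate 1, with 18.5 normalized counts against 32.8 in the next library. On the log2 CPM scale the gap was 0.724 of the whole range of the 7 libraries, which is past the limit of Dixon's test. It was the only such library among the 40 combinations of member and group, and chance flags about 1 in 20.

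The male change minus the female change on the log2 scale was past the threshold for 9 members by the edgeR interaction term. It was −2.72 for Ciita, −2.4 for Cd74, −2.35 for H2-Eb1, −2.34 for H2-Aa, −2.3 for H2-Ab1, −2.2 for H2-DMa, −2.14 for H2-DMb1, −1.2 for H2-Ob and −1.02 for H2-DMb2.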

How the results depend on the processing

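Under 8 other settings and with each of 28 libraries left out in turn, the number of members called was 10 in males, 0 in females and 9 between male and female WT livers. The correlations with Ciita called 0 under 3 other settings and with each library of a group left out. No called fold change turned its direction. With scaling by library size alone, 1 member (H2-Aa, −0.79, adjusted p = 0.0499) instead of 0 differed between male and female SIRT6-tg livers, and the median of all genes in males moved from 0.06 to −0.22. The interaction counted 9 members, 9 to 10 under 7 other settings (10, with H2-Oa, under library size alone), and 7 to 9 with a library left out. The ratio to Ciita in males counted 3 members, 5 when each sex was fitted separately, 4 with a prior count of 0.5, and 3 to 5 with a library left out (5 without male WT replicate 6 and without female SIRT6-tg replicate 2). The ratio to Ptprc in males counted 8, 7 with a prior count of 0.5, and 5 to 8 with a library left out (5 without male WT replicate 6). H2-Oa rests on few reads, which limits its precision.

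Replicate numbers are shared between groups, without clear pairing by number. Deviations of same-numbered WT and SIRT6-tg libraries correlated at −0.283 to 0.271, and not every library correlated best with its own number. The study's text reports comparing littermates housed together, and this check cannot show whether libraries were related by litter or cage. With the replicate block the counts were 10 in males, 0 in females, 9 for the interaction, 9 between WT sexes, 0 between SIRT6-tg sexes, 4 and 0 for the ratio to Ciita in males and females, and 8 and 0 for the ratio to Ptprc.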

Other observations

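The rule used for Ciita was extended to the other members after their values had been seen. By the mean of the 4 within-group r, H2-Ab1 and H2-Eb1 were the most alike (0.993), and the 5 genes most like each of H2-Aa, H2-Ab1, H2-Eb1, H2-DMa and Cd74 were all members. The genes most like H2-DMb2 and H2-Ob were not. Both had Ighd, the heavy chain of IgD on B cells, in first place, and Cd79a of the B cell receptor among the first 5. H2-Ob and H2-DMb2 had a mean r of 0.648 with each other, against 0.191 for H2-Ob with H2-DMa and 0.0856 for H2-DMb2 with H2-DMb1. H2-Oa, which rests on few reads, had neither Ighd nor Cd79a among its first 5. Those were Kdelr3 (0.609), Fscn1, Fam43a, Apold1 and Mxra8 (0.590). Its mean r was 0.530 with H2-DMb2 and 0.206 with H2-Ob. These are descriptions over 7 libraries in each group.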
